A study of Mus musculus with 6 samples.

Results

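The ERK feedback regulators examined here are Spry1, Spry2, Spry4, Spred1, Spred2, Dusp4, Dusp5, Dusp6, Etv4 and Etv5. They were picked out by their symbols, with no threshold on a measured value, and are 10 of the 29955 genes in the deposited expression table. All 10 had enough reads to be tested. In Rnf40-/- mouse embryonic fibroblasts (MEFs), 6 of them were lower than in Rnf40+/+ MEFs, namely Spry1, Etv4, Dusp5, Spry4, Etv5 and Spred1. Dusp6 and Spred2 were higher, and Spry2 and Dusp4 did not pass the test. By the same test, 24.1% of all genes tested were lower and 23.3% were higher.

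ERK is the last kinase of a cascade that runs from a receptor tyrosine kinase through RAS, RAF and MEK, and in fibroblasts it carries much of the response to growth factors. Active ERK switches on genes whose products damp the same cascade, so the transcripts of these regulators are often read as a record of past signalling. Sprouty proteins act between the receptor and RAF, Spred proteins bring neurofibromin to RAS at the membrane, dual-specificity phosphatases (DUSPs) take phosphate off ERK itself, and ETV4 and ETV5 are ETS transcription factors of the PEA3 group that are induced by fibroblast growth factor signalling.

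RNF40 is a subunit of the ubiquitin ligase that puts a single ubiquitin on histone H2B, and the study asked which transcripts depend on it. RNA-seq libraries were made from 3 samples labelled Rnf40+/+ and 3 labelled Rnf40-/-, all of primary MEFs at passage 3. In the conditional allele exons 3 and 4 of Rnf40 are flanked by loxP sites, and the cells carried the ubiquitously expressed, tamoxifen-inducible Rosa26-CreERT2 transgene. Knockout cells received 250 nM 4-hydroxytamoxifen for 5 days and were then grown for 3 days without it. The sources do not state whether the Rnf40+/+ libraries came from cells given 4-hydroxytamoxifen, so deletion and treatment cannot be told apart. Nor do they say whether the 3 samples of a genotype came from separate embryos, so the p-values measure the spread between these samples, which may be technical.

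The values are normalized counts, that is, the reads of a gene scaled by the size factor of its library. The libraries held between 17053436 and 26344170 reads on genes, with the deepest in the Rnf40+/+ group (replicate 3), and the ranges of the genotypes overlapped. As a check of the labels, Rnf40 itself had 1278, 1195 and 1096 normalized counts in Rnf40+/+ against 439, 519 and 487 in Rnf40-/- libraries. Every Rnf40-/- library was thus below every Rnf40+/+ library for the targeted gene (log2 fold change -1.30, SE 0.09, limma adjusted p = 4.25e-07). A difference between genotypes was called at a Benjamini-Hochberg adjusted p under 0.05 from limma, fitted over all 16378 genes with enough reads. The fold changes are on the log2(normalized count + 1) scale.

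**Figure D1:**
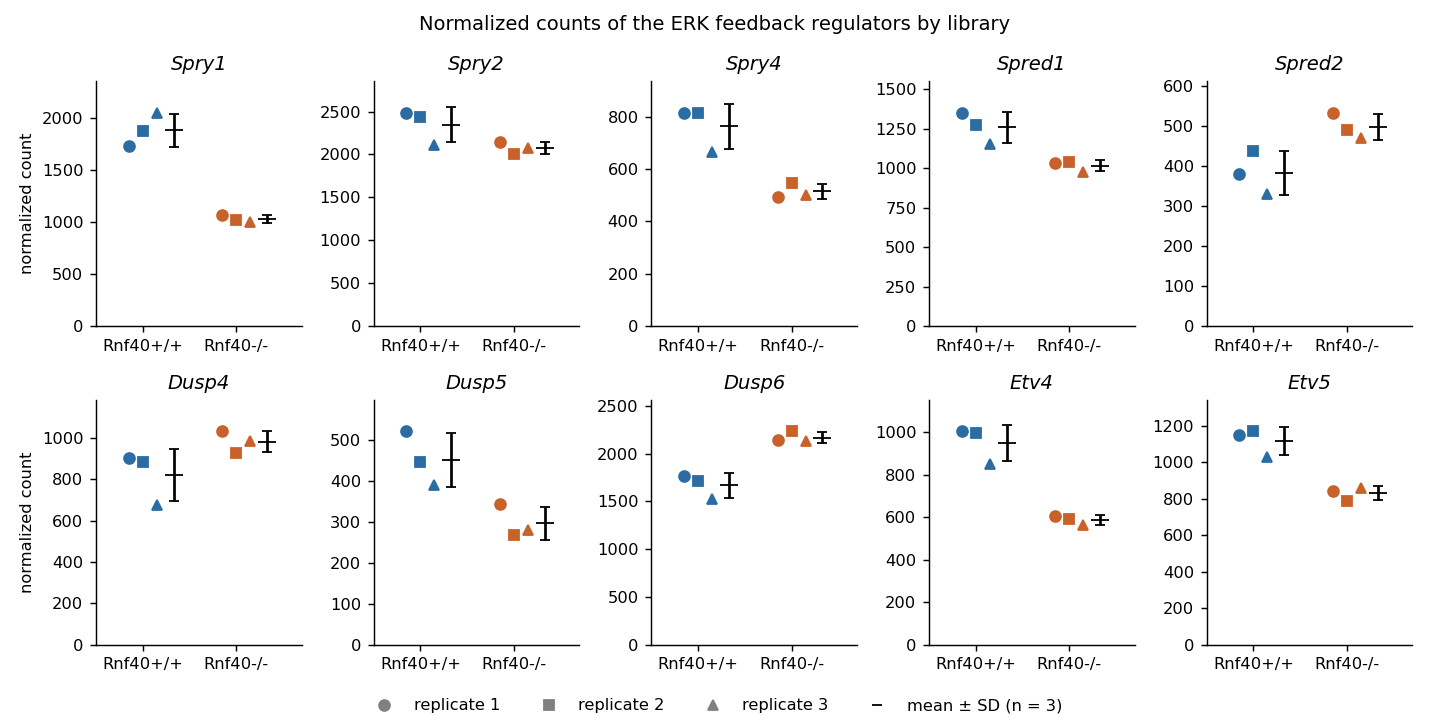
Normalized counts of the 10 feedback regulators (y axis, starting at 0, with a scale of its own in each panel) in Rnf40+/+ (blue) and Rnf40-/- (orange) MEFs; circles, squares and triangles are replicates 1, 2 and 3, and the bars show the mean ± SD of 3 libraries. The genotypes overlap for Spry2, and for the other 9 genes all libraries of one genotype lie on one side of the other genotype.

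Across the 10 regulators, 6 were called lower and 2 were called higher in Rnf40-/- MEFs. Over all genes tested, 24.1% were called lower and 23.3% higher, so that calls in either direction were frequent in this comparison. For 6 regulators every Rnf40-/- library was below every Rnf40+/+ library and for 3 it was above, while this held for 28.7% and 27.8% of all genes tested. The median log2 fold change was -0.37 over the 10 regulators and -0.0035 over all genes tested. The median size of the change without regard to sign was 0.41 for the regulators and 0.33 for all genes tested. The fold changes ran from -0.87 for Spry1 to 0.39 for Spred2, and no regulator was changed by as much as 1 on the log2 scale. In bulk samples such as these, fewer cells that express a gene and less RNA of it per cell cannot be told apart.

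**Figure D2:**
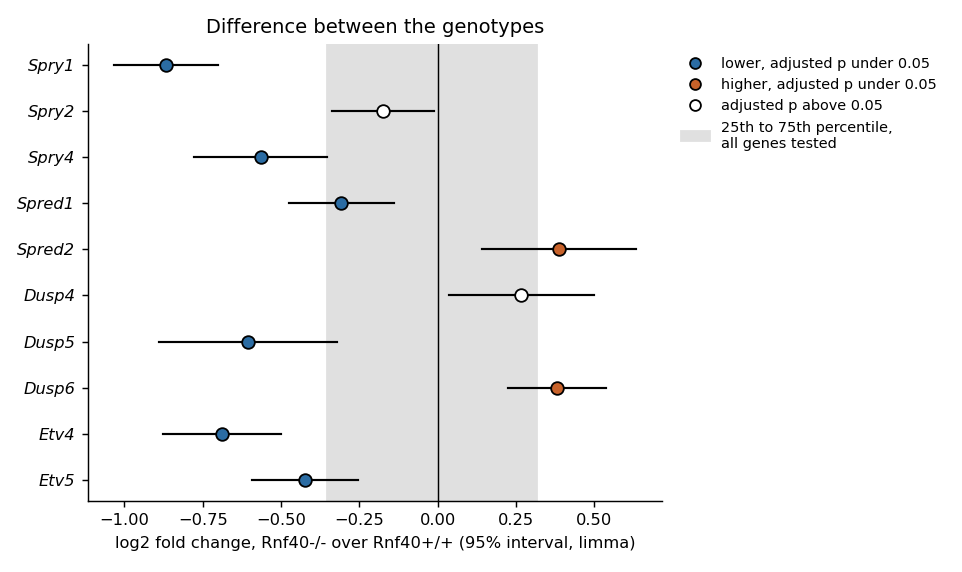
Log2 fold change of each feedback regulator, Rnf40-/- over Rnf40+/+ (x axis), with the 95% interval from limma as a line; blue points were called lower, orange points higher, and white points had an adjusted p above 0.05, while the grey band spans the 25th to the 75th percentile of all genes tested. Spry1 lies farthest to the left at -0.87, and Spred2 and Dusp6 lie farthest to the right at 0.39 and 0.38.

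The Sprouty genes encode the inhibitors that act nearest to the receptor, and 2 of the 3 fell in Rnf40-/- MEFs. Spry1 (ENSMUSG00000037211, chr3:37538869-37543520 of mm9, plus strand) had 1732, 1873 and 2051 normalized counts in Rnf40+/+ against 1072, 1023 and 999.9 in Rnf40-/- libraries. The Rnf40-/- libraries were all far below the lowest Rnf40+/+ library, at 54.7% of the Rnf40+/+ mean. This was the largest change among the 10 regulators (log2 fold change -0.87, SE 0.08, 95% interval -1.03 to -0.70, limma adjusted p = 2.99e-06). Spry4 (ENSMUSG00000024427, chr18:38745922-38760922, minus strand) had 814, 814 and 664 in Rnf40+/+ against 495, 548 and 501 in Rnf40-/- libraries. It fell to 67.3% of the Rnf40+/+ mean without overlap (log2 fold change -0.56, SE 0.10, 95% interval -0.78 to -0.35, limma adjusted p = 0.000521). Spry2 (ENSMUSG00000022114, chr14:106291166-106296036, minus strand), the most abundant of the family, had 2484, 2440 and 2113 in Rnf40+/+ against 2144, 2001 and 2072 in Rnf40-/- libraries. Rnf40-/- replicate 1 exceeded Rnf40+/+ replicate 3, so the genotypes overlapped, and the difference was not called (log2 fold change -0.18, SE 0.07, 95% interval -0.34 to -0.01, limma adjusted p = 0.0713). Without Rnf40+/+ replicate 3 the difference was -0.25 and was called (limma adjusted p = 0.00677).

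The Spred genes moved in opposite directions. Spred1 (ENSMUSG00000027351, chr2:116947110-117008015, plus strand), whose product recruits neurofibromin to the plasma membrane, had 1348, 1272 and 1154 normalized counts in Rnf40+/+ and 1033, 1036 and 973 in Rnf40-/- libraries. It fell to 80.6% of the Rnf40+/+ mean (log2 fold change -0.31, SE 0.08, 95% interval -0.48 to -0.14, limma adjusted p = 0.00577). Spred2 (ENSMUSG00000045671, chr11:19824378-19924029, plus strand), its close relative, had 380, 438 and 330 in Rnf40+/+ and 533, 492 and 470 in Rnf40-/- libraries. All Rnf40-/- libraries were above all Rnf40+/+ libraries, at 130% of the mean (log2 fold change 0.39, SE 0.11, 95% interval 0.14 to 0.63, limma adjusted p = 0.0134). The Spred2 call was lost without Rnf40-/- replicate 1, its highest library, where the log2 fold change was 0.34 (limma adjusted p = 0.0669). Calls of higher genes over the whole table also fell without that library, from 3809 to 3051. Without Rnf40+/+ replicate 3 the Spred2 fold change was smaller, 0.29, and was still called (limma adjusted p = 0.0359).

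Of the 3 ERK phosphatases, 1 fell, 1 rose and 1 was not called. Dusp5 (ENSMUSG00000034765, chr19:53603599-53616921, plus strand), a nuclear phosphatase selective for ERK, had 521, 446 and 389 normalized counts in Rnf40+/+ and 343, 267 and 279 in Rnf40-/- libraries. It fell to 65.6% of the Rnf40+/+ mean with no overlap (log2 fold change -0.60, SE 0.13, 95% interval -0.89 to -0.32, limma adjusted p = 0.00237). Dusp6 (ENSMUSG00000019960, chr10:98725865-98730122, plus strand), the cytoplasmic phosphatase selective for ERK, had 1767, 1715 and 1520 in Rnf40+/+ and 2142, 2233 and 2132 in Rnf40-/- libraries. It was higher in every Rnf40-/- library than in any Rnf40+/+ library (log2 fold change 0.38, SE 0.07, 95% interval 0.22 to 0.54, limma adjusted p = 0.000979). Dusp4 (ENSMUSG00000031530, chr8:35870351-35882948, plus strand), a nuclear phosphatase that also acts on other MAP kinases, had 903, 885 and 677 in Rnf40+/+ and 1032, 930 and 985 in Rnf40-/- libraries. The genotypes did not overlap, but the spread of the Rnf40+/+ libraries was wide and the difference was not called (log2 fold change 0.27, SE 0.11, 95% interval 0.04 to 0.50, limma adjusted p = 0.0554). The size of the Dusp4 difference turned on Rnf40+/+ replicate 3, and without that library it was 0.13 (limma adjusted p = 0.181). Without Rnf40+/+ replicate 1 it was 0.34 and was called (limma adjusted p = 0.0210).

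The sequences just upstream of 3 regulators are shown because these genes span the responses seen. Spry1 fell the most, Dusp5 fell, and Dusp6, also the gene of an ERK phosphatase, rose. They come from the RefSeq promoter table (assembly GRCm38.p6), and each of them matched mm9 at a single place. They end at the base before the annotated start of the gene in mm9, and are written 5′ to 3′ on the strand of the gene. Capitals mark the letters of motif matches on either strand. The Dusp5 stretch is chr19:53603385-53603598, the Spry1 stretch is chr3:37538619-37538868 and the Dusp6 stretch is chr10:98725615-98725864.
Dusp5: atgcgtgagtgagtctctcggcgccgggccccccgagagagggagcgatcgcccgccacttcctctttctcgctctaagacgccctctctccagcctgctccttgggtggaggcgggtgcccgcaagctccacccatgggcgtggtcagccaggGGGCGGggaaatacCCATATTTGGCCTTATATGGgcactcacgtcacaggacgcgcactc
Spry1: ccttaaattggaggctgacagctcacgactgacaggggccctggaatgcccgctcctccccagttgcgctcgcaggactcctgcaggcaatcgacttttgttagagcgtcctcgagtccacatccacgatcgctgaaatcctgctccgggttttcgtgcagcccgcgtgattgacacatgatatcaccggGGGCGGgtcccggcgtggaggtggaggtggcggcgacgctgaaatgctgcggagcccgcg
Dusp6: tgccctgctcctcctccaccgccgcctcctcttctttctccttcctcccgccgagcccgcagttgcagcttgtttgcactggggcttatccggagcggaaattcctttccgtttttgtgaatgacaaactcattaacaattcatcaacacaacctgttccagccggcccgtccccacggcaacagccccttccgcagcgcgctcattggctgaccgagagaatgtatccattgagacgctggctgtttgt
In the Dusp5 sequence the capitals mark a GC box and 2 CArG boxes, the element bound by serum response factor. The CArG boxes lie directly next to each other, with their first bases 82 and 72 bases before the RefSeq start site. Between the end of the printed Dusp5 stretch and that site lie 36 more bases. In the Spry1 sequence the capitals mark a GC box, and the Dusp6 sequence held none of the motifs searched. The window searched was the 250 bases before each RefSeq start site, for 8 promoters of 7 regulators and for 32851 promoters of all genes; sequences of Spry4, Dusp4 and Etv4 were not used here. A CArG box was found in 1 of the 8 promoters and in 1.47% of all promoters. A GC box (GGGCGG) was found in 5 of the 8 and in 32.7% of all promoters. The AP-1 site (TGANTCA) was found in none of the 8 and in 6.75% of all promoters, and the cyclic AMP response element (TGACGTCA) in none and in 1.55%. The letters CCGGAA, a longer form of the ETS site, were found in none and in 12% of all promoters. The shorter ETS core GGAA was not searched. No motif here overlapped another within the printed sequences, and a match describes the letters only.

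Both ETS factors fell. Etv4 (ENSMUSG00000017724, chr11:101631056-101646685, minus strand) had 1003, 994 and 851 normalized counts in Rnf40+/+ and 607, 593 and 563 in Rnf40-/- libraries. It fell to 61.9% of the Rnf40+/+ mean, which was the second-ranked fall after Spry1 (log2 fold change -0.69, SE 0.09, 95% interval -0.88 to -0.50, limma adjusted p = 4.59e-05). Etv5 (ENSMUSG00000013089, chr16:22381382-22439792, minus strand) had 1149, 1170 and 1029 in Rnf40+/+ and 845, 787 and 860.2 in Rnf40-/- libraries. It fell to 74.5% of the Rnf40+/+ mean, and no library of one genotype reached the range of the other (log2 fold change -0.42, SE 0.08, 95% interval -0.59 to -0.25, limma adjusted p = 0.000839).

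The spread within the Rnf40+/+ group was shared between the regulators. Rnf40+/+ replicate 3, the deepest library, was the lowest of its group for 9 of the 10, all but Spry1, and it was the lowest for 37.4% of all genes tested. Against the mean of the other 2 Rnf40+/+ libraries on the log2 scale, it differed by between -0.17 for Etv5 and -0.40 for Dusp4 in those 9 genes and by 0.19 for Spry1. The same library held the top value of its group for 6 of 8 fibroblast markers, 6 of 8 macrophage markers and 3 of 3 tested epithelial markers. It held the top value for 34.3% of all genes tested. Of the 5 endothelial markers tested, it was the highest for 1 and the lowest for 3. The part of these markers in the values of the regulators was not tested. Without this library the 6 regulators called lower remained called, with log2 fold changes from -0.37 for Spred1 to -0.80 for Spry1, and Spry2 joined them. Dusp6 and Spred2 remained called higher without it, at 0.32 and 0.29 on the log2 scale (limma adjusted p = 0.00133 and 0.0359).

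**Figure D3:**
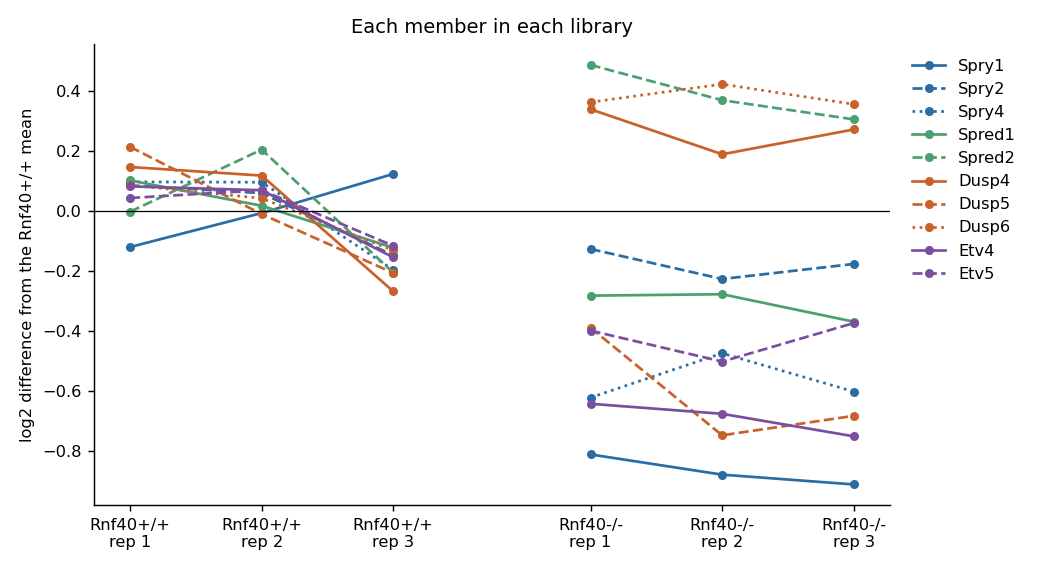
Log2 difference of each feedback regulator from its Rnf40+/+ mean (y axis) in each of the 6 libraries (x axis); a line joins the values of 1 gene within a genotype and stands for no order of the libraries. In Rnf40+/+ replicate 3 Spry1 lies above 0 and the other 9 genes lie below it, and in the Rnf40-/- libraries Dusp4, Dusp6 and Spred2 lie above 0.

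Ratios of family members within a library do not depend on the size factor, so they were used to compare the regulators with one another. Spry2 over Spry1 was 1.43, 1.30 and 1.03 in Rnf40+/+ and 2.001, 1.96 and 2.07 in Rnf40-/- libraries. The ratio was thus higher in every Rnf40-/- library than in any Rnf40+/+ library, with a difference of the mean log2 ratios of 0.69. Spred2 over Spred1 was 0.282, 0.345 and 0.286 in Rnf40+/+ and 0.516, 0.474 and 0.484 in Rnf40-/- libraries, a difference of 0.70 in log2 ratio without overlap. Dusp6 over Dusp5 was 3.39, 3.85 and 3.91 in Rnf40+/+ and 6.25, 8.36 and 7.63 in Rnf40-/- libraries. This ratio showed the widest separation of the 7 ratios computed, 0.99 on the log2 scale. Dusp4 over Dusp5, both genes of nuclear phosphatases, was higher by 0.87. Dusp6 over Dusp4 was 1.96, 1.94 and 2.25 in Rnf40+/+ and 2.08, 2.40 and 2.17 in Rnf40-/- libraries, so the genotypes overlapped. Etv4 over Etv5 was 0.873, 0.850 and 0.828 in Rnf40+/+ and 0.718, 0.753 and 0.654 in Rnf40-/- libraries. This ratio was lower in each Rnf40-/- library than in any Rnf40+/+ library, with a difference of the mean log2 ratios of -0.27. Spry4 over Spry1 overlapped between the genotypes. These ratios are given as a description, with no test. Apart from the added count of 1, each difference of mean log2 ratios follows from the fold changes of both genes given above.

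**Figure D4:**
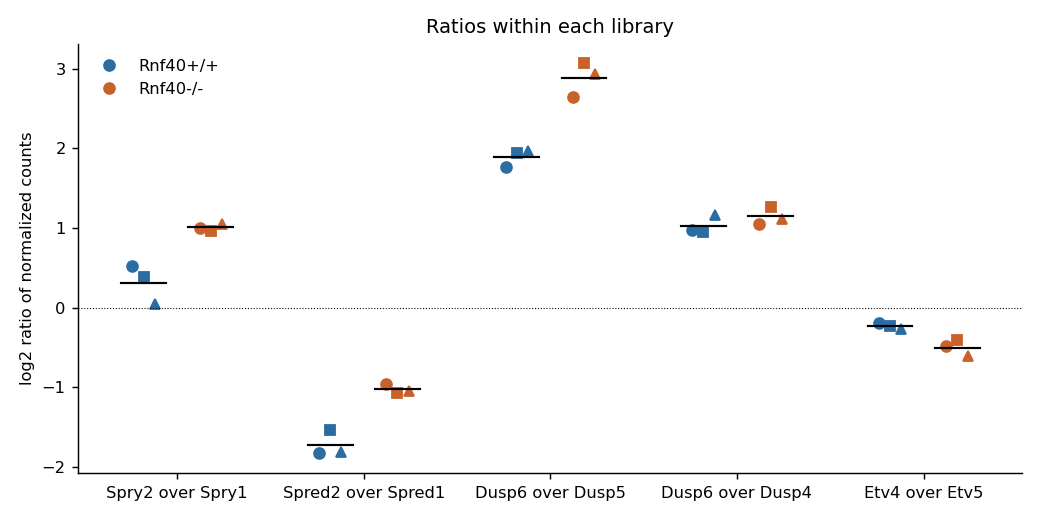
Log2 ratio of the normalized counts of 2 regulators within each library (y axis) for 5 pairs, in Rnf40+/+ (blue) and Rnf40-/- (orange); circles, squares and triangles are replicates 1, 2 and 3, and a short line marks the mean. The genotypes are separate for all pairs shown except Dusp6 over Dusp4.

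Levels of different genes were compared as normalized counts per kb of the longest annotated transcript. In Rnf40+/+ MEFs Spry2 had the highest level per kb (1125 ± 97.2, SD, n = 3), followed by Spry1 (679.9 ± 57.7) and Dusp6 (596 ± 46.6), and the ranges of Spry1 and Dusp6 overlapped. Etv4 had 396 ± 35.6 per kb, and Dusp4 (299.9 ± 45.8) and Etv5 (281 ± 19.2) were neighbours with overlapping ranges. Spred1 (209 ± 16.3), Dusp5 (183 ± 26.7) and Spry4 (167 ± 18.8) came next, and the range of Dusp5 overlapped those of both others, while Spred2 was lowest at 86.0 ± 12.2 per kb. In Rnf40-/- MEFs Dusp6 (776 ± 19.96 per kb) stood above Spry1 (372 ± 13.2), with Spry2 still highest at 994 ± 34.5, so the second place passed from Spry1 to Dusp6. With the median transcript length or the coding length in place of the longest transcript these 3 genes kept their order in both genotypes, while places further down changed. Summed per kb, the Sprouty genes went from 1972 ± 65.6 to 1478 ± 39.5, the Spred genes from 295 ± 25.3 to 281 ± 12.3, the 3 phosphatase genes from 1079 ± 117 to 1254 ± 24.2, and the ETS genes from 677 ± 54.5 to 454 ± 10.6.

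The rest of the pathway was described with 4 lists written from general knowledge, but with earlier results of these data known. Their counts are therefore a description only. They stand beside the 24.1% of all genes tested that were called lower and the 23.3% called higher. Among 12 relatives and other feedback genes, 4 were called lower, 3 higher and 4 not, with a median log2 fold change of -0.15, and Dusp2 had too few reads to be tested. Dusp8, a phosphatase of stress-activated kinases, had 115, 109 and 72.7 normalized counts in Rnf40+/+ and 198, 218 and 228 in Rnf40-/- libraries and rose 2.20-fold (SE of the log2 fold change 0.18, limma adjusted p = 0.000271). Errfi1, an inhibitor of the EGF receptor that is itself induced by signalling, fell from 1415, 1529 and 1258 to 830.0, 699 and 705, a log2 fold change of -0.91 (SE 0.09, limma adjusted p = 9.91e-06). Dusp1, a nuclear phosphatase of p38, JNK and ERK, rose from 2258, 2176 and 1751 to 3628, 3722 and 3393, and Dusp16, which acts mainly on JNK, rose from 291, 344 and 339 to 535, 487 and 516. Their log2 fold changes were 0.80 and 0.66 (limma adjusted p = 2.07e-05 and 0.000184). The other phosphatases called, Dusp7, which acts on ERK in the cytoplasm, and Dusp10, which acts on JNK and p38, fell by 0.64 and 0.60 on the log2 scale (limma adjusted p = 2.60e-05 and 0.00168). Spred3 fell as well, by 0.59, and these last 3 genes were chosen for mention after their values were seen.

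Of 12 receptor tyrosine kinases, 5 were called lower, 3 higher and 3 not, with a median of 0.09, and Fgfr4 had too few reads. Pdgfra, a receptor for platelet-derived growth factor, fell from 1652, 1488 and 1580.4 normalized counts in Rnf40+/+ to 791, 723 and 704 in Rnf40-/- libraries, and Pdgfrb fell from 6166, 6134 and 7356 to 3961, 3886 and 4086. Their log2 fold changes were -1.09 and -0.72 (limma adjusted p = 4.79e-07 and 1.36e-05). Egfr rose from 1842, 2003 and 1722 to 3452, 3745 and 3451 (log2 fold change 0.94, limma adjusted p = 1.03e-06). Axl, a receptor for Gas6, fell from 13728, 14598 and 12322 to 8955, 8785 and 9376 (log2 fold change -0.58, limma adjusted p = 5.31e-05). Fgfr1 and Fgfr2 were also called lower, both at -0.39 on the log2 scale (limma adjusted p = 0.000221 and 0.0028). Met and Ddr2 were called higher, at 0.48 and 0.24 (limma adjusted p = 0.000997 and 0.00935). The receptor list thus held falls of both platelet-derived growth factor receptors, Fgfr1, Fgfr2 and Axl beside rises of Egfr, Met and Ddr2.

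Of 20 genes of the cascade from adaptor to ERK, 4 were called lower, 8 higher and 8 not, with a median of 0.12. Nras, a RAS gene, fell from 3140, 3084 and 2830.1 to 1385, 1459 and 1404 (log2 fold change -1.09, SE 0.07, limma adjusted p = 1.65e-07). Hras, listed in the table as Hras1, was not called, with a log2 fold change of -0.07. Shc1, an adaptor of receptor tyrosine kinases, fell by 0.77 on the log2 scale, and the docking protein gene Gab1 and the RAF kinase gene Braf rose by 0.82 and 0.69 (limma adjusted p = 1.34e-06, 4.67e-06 and 3.21e-05).

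All 12 other genes that are often used as readouts of ERK activity were called, 6 lower and 6 higher, with a median of -0.04, where 24.1% of all genes tested were lower and 23.3% higher. This list, too, was written with earlier results of these data known. Egr1, an immediate early transcription factor, fell from 3067, 2475 and 2028 to 1226, 1244 and 942 (log2 fold change -1.14, SE 0.14, limma adjusted p = 3.92e-05). Egr3, its relative, fell from 118, 117 and 101 to 47.9, 43.8 and 27.4 (log2 fold change -1.51, SE 0.23, limma adjusted p = 0.000231). Rnf40+/+ replicate 3 was the lowest of its group for 10 of these 12 genes, against 37.4% of all genes tested. Rnf40-/- replicate 3 was the lowest of its group for 7 of the 12, against 34.3% of all genes tested. Ccnd1, Phlda1, Fosl1 and Ier2 also fell, and Epha2, Junb, Ier3, Myc, Epha4 and Fos rose. The last 10 readout genes were chosen for mention after their values were seen, and the readout genes as a whole were divided evenly between falls and rises.

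**Figure D5:**
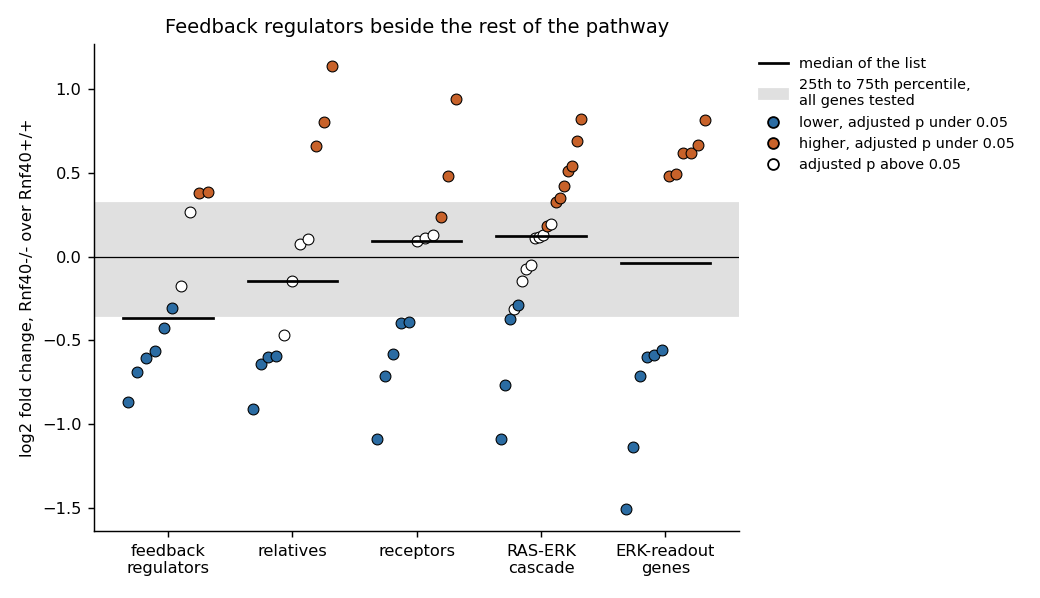
Log2 fold change, Rnf40-/- over Rnf40+/+ (y axis), of each tested gene of 5 lists (x axis), with the median of each list as a line and the 25th to the 75th percentile of all genes tested as a grey band; blue genes were called lower, orange genes higher and white genes were not called. The medians are -0.37 for the feedback regulators, -0.15 for their relatives, 0.09 for receptors, 0.12 for the RAS-ERK cascade and -0.04 for the ERK readout genes.

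Markers of cell types were counted too, beside the 24.1% of all genes tested that were called lower and the 23.3% called higher. The 8 fibroblast markers were abundant, with sums from 3.68e+05 to 4.26e+05 normalized counts in Rnf40+/+ and from 1.95e+05 to 2.09e+05 in Rnf40-/- libraries, and 7 were called lower and none higher. The 8 macrophage markers summed to between 5846 and 9890.3 in Rnf40+/+ and between 3773 and 4085 in Rnf40-/- libraries, with Lyz2 and Mpeg1 called lower and Ptprc and Cd14 called higher. The 6 endothelial markers summed to between 146 and 282 in Rnf40+/+ and between 234 and 333 in Rnf40-/- libraries. Of the 5 endothelial markers tested, 1 was called lower and 3 higher. Emcn was called lower, from a mean of 126 normalized counts in Rnf40+/+ to 55.3 in Rnf40-/- libraries. Cdh5 was called higher, with 0.799 to 5.10 normalized counts in Rnf40+/+ and 23.6 to 39.7 in Rnf40-/- libraries. The 6 epithelial markers summed to between 436 and 788 in Rnf40+/+ and between 578 and 812 in Rnf40-/- libraries, most of it from Krt19. Of the 3 epithelial markers tested, Cldn4 was called higher and none lower. Epcam, Cdh1 and Krt8 had too few reads to be tested. Epcam, near the limit of detection, stood at 0, 0 and 1.60 in Rnf40+/+ against 4.08, 4.17 and 8.50 in Rnf40-/- libraries. For Cdh1 and Krt8 the genotypes overlapped. The part of these markers in the changes of the feedback regulators was not tested.

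The study also sorted genes by histone marks. Its list of genes with broad H3K4me3 holds Spry2, Spred1, Dusp4 and Dusp6, and its list of genes with a significant loss of H3K27me3 holds Spry4. In the study, genes with broad H3K4me3 were lower as a group after the deletion, and many genes that lost H3K27me3 were higher. The 4 regulators of the first list differed in response, with Spred1 lower, Dusp6 higher and the other 2 not called. Spry4, of the second list, was called lower here. The marks themselves were not analysed here.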

How the data were processed

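RNA-seq of 3 Rnf40+/+ and 3 Rnf40-/- MEF samples was examined. The authors mapped reads to the mouse transcriptome (mm9) and normalized the counts per gene with DESeq, and the deposited values are this signal, called normalized counts here. The submitters' processing notes name Bowtie2 (version 2.1.0) and DESeq (version 1.14.0). The kit was directional, but whether counting used the strand is not given in the sources used here. No annotated gene of mm9 overlaps a regulator. Divided by what 1 read is worth, 100% of the positive values came out whole in every library (tolerance 0.01), which gave back the reads, and 3 reads, taken as the limit of detection, equal 2.40 to 3.58 normalized counts.

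Genes were kept with filterByExpr of edgeR (version 4.0.16). As the table holds normalized values, the main test was limma (version 3.58.1) with a trend on log2(normalized count + 1), with a term for genotype alone and p-values adjusted over 16378 genes (Benjamini-Hochberg). Errors are the SD of 3 libraries or the SE of limma. The precision of each value is limited by the number of libraries. Within a genotype no 2 libraries were duplicates (chi-square per gene from 5.38 to 29.1). The labels give no batch. Over all genes tested, same-numbered libraries did not deviate together, so replicate numbers were not used as pairs. Lengths and positions are from the mm9 annotation.

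The regulators and the gene lists were chosen with earlier results of these data known. Every regulator is named, with Rnf40. From each list the genes named are those called with an absolute log2 fold change above 1 or, where fewer than 2 exist, the 4 called genes with the largest change. Further genes named from a list were chosen after their values were seen. Alternatives were other size factors, edgeR and DESeq2 (version 1.42.0) on the recovered reads, no filter, at least 10 reads in every library, pseudocounts of 0.1 and 10, the replicate number as a block, each library left out, other lengths per gene and the study's minimum fold. Calculations used R (version 4.3.3) and Python (version 3.11.15). The ChIP-seq experiments were not analysed here.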

Additional observations from a re-analysis of the deposited data

How the results depend on the processing

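Each regulator was tested again in 16 settings, giving 160 results, of which 153 kept their direction and their side of the threshold, 6 gained the call, 1 lost it and none changed direction. The size factors of DESeq2 equal those of the authors, so the 10 results under that setting could not change. The gains were Dusp4 with the TMM factors of edgeR (log2 fold change 0.27, limma adjusted p = 0.0497), with the Wald test of DESeq2 (0.27, adjusted p = 0.0488), without Rnf40+/+ replicate 1 and with the replicate block, and Spry2 without Rnf40+/+ replicate 3 and with the replicate block. With the replicate block 7 regulators were called lower and 3 higher, with Spry2 at -0.18 (limma adjusted p = 0.0468) and Dusp4 at 0.27 (limma adjusted p = 0.0195). Calls over all genes rose as well, from 3955 to 4196 lower and from 3809 to 4021 higher. Over all genes tested, same-numbered libraries had correlations of their deviations of only 0.012, 0.017 and 0.021. Among the 10 regulators, replicate 1 was the highest of its group for 7 in Rnf40+/+ and for 6 in Rnf40-/- libraries. Replicate 3 was the lowest for 9 and for 5 of them. Over all genes tested, replicate 1 was the highest for 30.1% in Rnf40+/+ and 28.8% in Rnf40-/- libraries, and replicate 3 was the lowest for 37.4% and 34.3%. Whether the regulators share an effect of the replicate number was not tested. Leaving out each library in turn gave 6 to 7 regulators called lower and 1 to 3 called higher, the 1 being without Rnf40-/- replicate 1, where Spred2 lost its call. Over all genes these settings called 3342 to 3896 lower and 3051 to 3817 higher, with the fewest in both directions without Rnf40-/- replicate 1. The study's thresholds of a mean above 15, an unadjusted p under 0.05 (here from limma) and an absolute log2 fold change above 1 left 934 genes lower and 696 higher, with 0 regulators in either direction. Under these thresholds 0 relatives were lower and 1 higher, 1 cascade gene lower and 0 higher, 1 receptor lower and 0 higher, and 2 readout genes lower and 0 higher. Other size factors moved the median of all genes by at most 0.0044 on the log2 scale. Depth did not limit the regulators, whose reads were far above the limit of detection.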
